A study of Mus musculus with 30 samples.

Results

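The nuclear genes of the respiratory chain described here are the protein-coding rows named Ndufa, Ndufb, Ndufc, Ndufs or Ndufv (complex I and its assembly factors), Sdha to Sdhd (complex II), Uqcr (complex III), Cox4 to Cox8 (complex IV) and Atp5 (complex V) that reached 1 TPM in at least 3 of 30 libraries. Of 97 rows with such names 90 met this level, out of 25434 genes that met it in all and 56686 genes in the table.

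The respiratory chain passes electrons from NADH and succinate to oxygen through complexes I to IV in the inner membrane of mitochondria, and complex V, the ATP synthase, uses the resulting proton gradient to make ATP. Most subunits are encoded in the nucleus, while a small set is encoded in mitochondrial DNA, so the complexes need products of both genomes. Sensory neurons of the dorsal root ganglia keep long axons supplied with ATP, and mitochondrial injury is a much studied feature of neuropathy after chemotherapy.

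Ganglia L3 to L5 of both sides were taken from male C57BL/6J wild-type mice after perfusion with RNAlater, and total RNA depleted of ribosomal RNA was sequenced. Day 2 has 4 groups, which are CVAD (cyclophosphamide, vincristine, doxorubicin and dexamethasone together), cyclophosphamide, dexamethasone and saline. Day 8 has 6 groups, which are CVAD, cyclophosphamide, vincristine, doxorubicin, dexamethasone and saline. Each group has 3 libraries. The labels give no age or dose and do not say whether a library is 1 animal or a pool, so p-values measure the spread between samples, which may be technical. TPM, transcripts per 1e+06, is scaled for transcript length and library total, and the read depth is unknown. Changes are differences of log2(TPM + 1) with their SE, a scale that understates the changes of genes with few TPM, and a gene is called where the adjusted p of limma is under 0.05. In bulk RNA, fewer cells of a type and less RNA per cell cannot be told apart.

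The libraries had the markers of ganglia. The 12 sensory neuron markers summed to 2278 to 3237 TPM per library and the 7 satellite glia markers to 795 to 1027 TPM, and each of these 19 genes was above 0 in every library. The 12 skeletal muscle markers summed to 19.7 to 1264 TPM. Libraries numbered 1 to 8 (all CVAD and cyclophosphamide libraries of day 2 and replicates 1 and 2 of dexamethasone on day 2) stood apart from the other libraries of day 2. Of 2620 processed pseudogenes tested, 223 (8.51%) were higher in every one of libraries 1 to 8 than in every other day 2 library, against 317 of 15314 protein-coding genes (2.07%). Libraries 1 to 8 hold no saline sample, so for CVAD and cyclophosphamide on day 2 drug and library number cannot be told apart.

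Together the 90 genes carried 6691 to 8483 TPM per library, 0.669 to 0.848% of all TPM and 1.08 to 1.26% of the TPM of protein-coding genes. The median member averaged 87.4 TPM over the 30 libraries, against 30.5 TPM for the median protein-coding gene tested. Members were above 0 in all 30 libraries for 86 genes, and 37 averaged at least 100 TPM. The most abundant was Atp5b (ENSMUSG00000025393), the catalytic beta subunit of ATP synthase, at 243 ± 22.4 TPM (SD, n = 30), followed by Atp5a1, the alpha subunit, at 180.1 ± 17.5 TPM. The 35 complex I subunits summed to 2551 to 3163 TPM per library, the 16 genes of complex V to 1651 to 2157 TPM, the 18 of complex IV to 1200.4 to 1598 TPM, the 7 of complex III to 635 to 832 TPM and the 4 of complex II to 312 to 409 TPM.

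**Figure D1:**
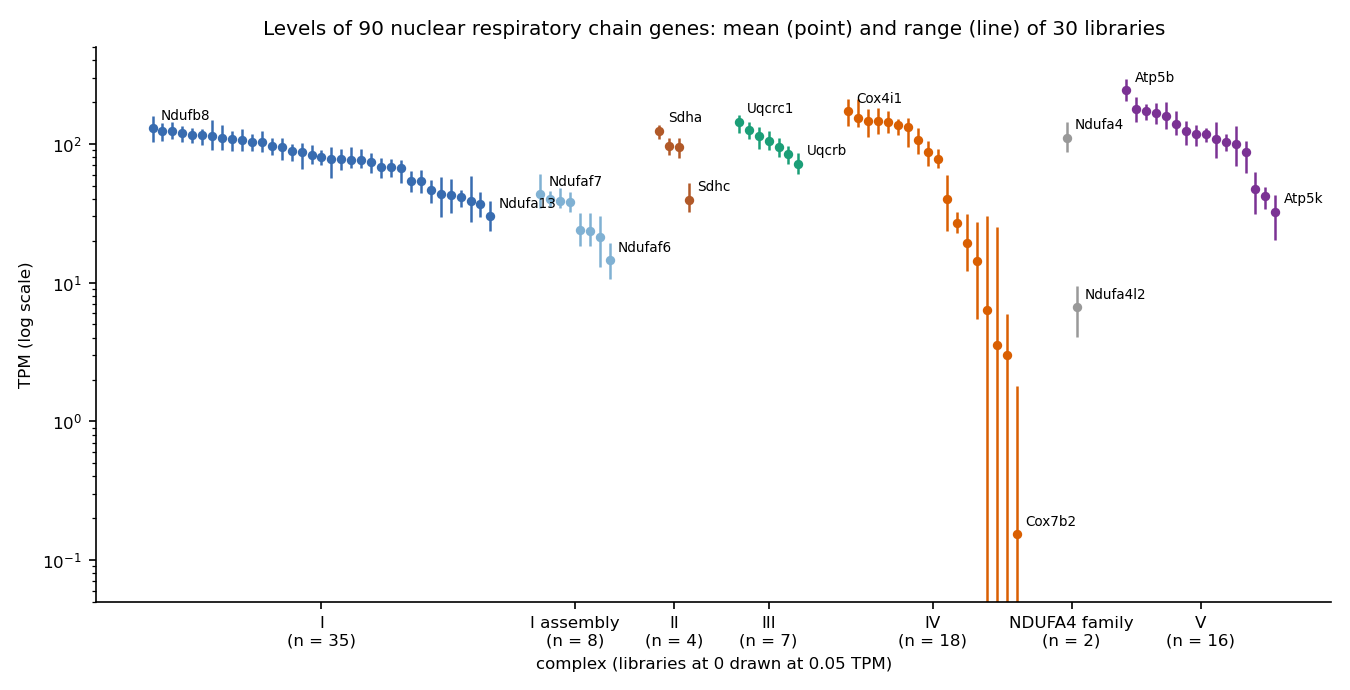
Mean (points) and range (lines) of TPM over the 30 libraries for each of the 90 genes, on a log axis and grouped by complex, with the highest and lowest gene of each group named. Most subunits lie between 20 and 243 TPM, and only complex IV holds genes with libraries at 0, which are drawn at the bottom of the axis.

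Within complex I the highest gene was Ndufb8, an accessory subunit, at 129 ± 13.3 TPM, and the lowest was Ndufa13, also known as GRIM-19, at 30.04 ± 3.48 TPM. The core subunits Ndufv1 and Ndufs1, which belong to the peripheral arm that takes electrons from NADH, averaged 125 and 104 TPM. The 8 assembly factors, which help build complex I but are not part of it, were lower, between 14.6 TPM for Ndufaf6 and 43.2 TPM for Ndufaf7. In complex II Sdha, the flavoprotein that oxidises succinate, averaged 125 ± 7.66 TPM and Sdhb, its iron-sulfur partner, 96.1 ± 6.34 TPM. The membrane anchors Sdhd and Sdhc were at 94.9 ± 8.08 and 39.6 ± 4.34 TPM, so Sdhc was the lowest of the 4. In complex III the core protein Uqcrc1 was highest at 145 ± 10.5 TPM and Uqcrb lowest at 72.004 ± 5.60 TPM. In complex IV Cox4i1 was highest at 172 ± 16.4 TPM. In complex V Atp5k, the e subunit, was lowest at 32.5 ± 4.54 TPM. Each SD is over the 30 libraries.

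The c subunit of ATP synthase, which forms the rotating ring, is made from 3 genes whose mature proteins are the same. Atp5g3 held a median of 43.2% of their summed TPM (range 40.1 to 49.97%), Atp5g2 31.0% (25.1 to 35.5%) and Atp5g1 26.2% (19.7 to 30.9%). Atp5g3 was thus the highest of the 3 in each library, while the ranges of Atp5g2 and Atp5g1 overlapped. Between groups the mean share of Atp5g3 lay between 42.0% in dexamethasone and 45.8% in saline, both on day 8.

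The mitochondrial genome could not be set beside the nuclear genes. All 37 mitochondrial genes of the table, the 13 protein-coding ones included, were listed at 0 in every library, so their levels are not analysed here. Of the 7 rows that matched by name but missed the level, Ndufb10, Ndufb4, Uqcrq, Atp5l, Cox8c and a second Atp5o entry were also listed at 0 in all 30 libraries, and Ndufb11b reached at most 0.360 TPM. Ndufb10, Ndufb4 and Uqcrq encode subunits that the complexes need in every tissue, so a listed 0 is not a measure of absence.

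Several genes come with processed pseudogene copies that have TPM of their own. The table names 18 such copies, of which 11 passed the level of 1 TPM and 7 averaged at least 20 TPM. Ndufb4c averaged 157 ± 11.4 TPM while Ndufb4 was listed at 0, and Atp5l2-ps averaged 45.9 ± 5.69 TPM while Atp5l was listed at 0. Ndufs5-ps was at 159 ± 16.5 TPM and Ndufab1-ps at 55.6 ± 10.4 TPM. The counterparts of these copies, Ndufs5 and Ndufab1, averaged 115 and 54.2 TPM. How reads were divided between a gene and its copies is not given in the sources used here, so the levels of Ndufs5, Ndufab1, Ndufa12, Cox6c, Cox5b and Atp5pb, and of their copies, are uncertain, as is that of Ndufa13, which overlaps Yjefn3 on the same strand. Cox5b-ps, at 26.7 ± 2.73 TPM, is annotated as protein-coding in the table and is 1 of the 90.

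Several complex IV subunits are made in tissue forms. Subunits 6A, 7A and 8 each have a form of most tissues (Cox6a1, Cox7a2, Cox8a) and a form of heart and skeletal muscle (Cox6a2, Cox7a1, Cox8b). The form of most tissues made up a median of 99.5% of the TPM for 6A, 89.5% for 7A and 98.3% for 8. Cox6a1 ranged from 112 to 179 TPM and Cox8a from 117 to 181 TPM. Cox6a2 was listed at 0 in 15 of 30 libraries and reached 25.3 TPM, Cox8b was at 0 in 14 and reached 30.4 TPM, and Cox7a1 ranged from 5.43 to 27.3 TPM with no library at 0. Cox4i2, a form known from lung and from low oxygen, was at 0 in 6 libraries and at most 5.95 TPM, against 134 to 209 TPM for Cox4i1. Cox6b2, the form known from testis, held 7.99 to 18.3% of the TPM of the 6B pair, at 12.2 to 31.2 TPM. Ndufa4l2, a relative of Ndufa4 known to be induced by low oxygen, averaged 6.69 ± 1.55 TPM, against 111 TPM for Ndufa4, which is now counted as a complex IV subunit. Of the other genes grouped by name under complex IV, Cox5a averaged 133 TPM, Cox5b 154 TPM, Cox6b1 144 TPM, Cox7a2l 138 TPM and Cox7b 77.7 TPM. Cox7b2 was the lowest member, listed at 0 in 27 libraries.

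The promoters of the 8 and 7A pairs are shown because each pairs a muscle form with a form of most tissues, and that of Cox6a1 because it held the NRF-1, ETS and CCAAT motifs. Of these 5 genes, Cox8b was the one with libraries at 0. These are the 250 bases before the start in RefSeq, GRCm38.p6, read on the strand of the gene, with matches in capitals. Cox8b lies at chr7:140900447-140900696 (minus strand), Cox8a at chr19:7217617-7217866 (minus), Cox7a1 at chr7:30183921-30184170 (plus), Cox7a2 at chr9:79759854-79760103 (minus) and Cox6a1 at chr5:115348959-115349208 (minus).
Cox8b: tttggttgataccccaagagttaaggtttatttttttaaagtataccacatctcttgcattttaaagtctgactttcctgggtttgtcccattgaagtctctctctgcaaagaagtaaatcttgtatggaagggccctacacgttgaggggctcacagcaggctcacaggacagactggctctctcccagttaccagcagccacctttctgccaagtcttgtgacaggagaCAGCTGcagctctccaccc
Cox8a: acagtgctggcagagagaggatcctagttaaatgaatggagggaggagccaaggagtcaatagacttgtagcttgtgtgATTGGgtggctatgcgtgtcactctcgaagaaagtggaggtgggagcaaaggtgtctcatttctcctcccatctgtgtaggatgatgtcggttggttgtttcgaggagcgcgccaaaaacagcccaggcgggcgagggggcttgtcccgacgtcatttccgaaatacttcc
Cox7a1: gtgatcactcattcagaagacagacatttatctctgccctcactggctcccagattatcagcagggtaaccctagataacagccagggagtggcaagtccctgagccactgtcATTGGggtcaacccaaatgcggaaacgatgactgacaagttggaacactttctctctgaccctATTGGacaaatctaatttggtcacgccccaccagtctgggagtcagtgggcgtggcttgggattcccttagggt
Cox7a2: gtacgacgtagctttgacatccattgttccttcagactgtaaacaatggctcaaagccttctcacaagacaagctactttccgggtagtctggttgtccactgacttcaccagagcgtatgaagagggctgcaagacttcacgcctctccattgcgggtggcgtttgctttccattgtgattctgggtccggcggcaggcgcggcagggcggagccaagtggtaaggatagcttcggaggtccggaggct
Cox6a1: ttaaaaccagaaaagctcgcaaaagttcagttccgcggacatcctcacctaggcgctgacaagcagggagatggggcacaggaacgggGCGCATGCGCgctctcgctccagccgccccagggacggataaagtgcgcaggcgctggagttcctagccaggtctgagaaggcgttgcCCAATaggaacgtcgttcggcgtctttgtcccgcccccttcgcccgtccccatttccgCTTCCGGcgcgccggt
The capitals mark matches to 6 motifs searched on both strands, and a match on the other strand is shown as its reverse complement. NRF-1 and GABP, an ETS factor, are known as regulators of nuclear respiratory genes, and E-boxes are bound by muscle factors of the MyoD family. Of 90 members 74 were matched by symbol, or else by a synonym, in the RefSeq table. The NRF-1 motif, the palindrome formed by GCGCA and its reverse complement, stood in 5 of these 74 (6.76%: Atp5g2, Atp5k, Cox6a1, Ndufa11 and Ndufaf4) and in 1.05% of 17492 promoters of protein-coding genes. The ETS motif CCGGAAG stood in 13 of 74 members (17.6%) against 9.24% of the coding promoters. The letters CCAAT stood in 32 members (43.2%) against 36.2% of the coding promoters. A TATAAA match was found in 6 members (8.11%) against 12.3% of the coding promoters. The E-box CAGCTG stood in 5 members (6.76%: Atp5b, Cox8b, Ndufa8, Ndufs5 and Ndufv2) against 11.7% of the coding promoters. The YY1 motif AAGATGGCG stood in 1 member (1.35%: Atp5j) against 0.709% of the coding promoters, and it can share its first letters with the end of the ETS motif. Of the 5 shown, Cox6a1 had the NRF-1, ETS and CCAAT motifs, Cox8a had CCAAT, Cox7a1 had CCAAT at 2 places, Cox8b had CAGCTG and Cox7a2 had none. A match is a description of letters, and no factor was measured here.

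The muscle forms Cox6a2 and Cox8b varied with skeletal muscle genes from library to library, and Cox7a1 did so less closely. In the 10 libraries with the lowest summed muscle markers (19.7 to 196 TPM) Cox6a2 was listed at 0 in each, and Cox8b was at 0 in 8. In the 10 libraries with the highest sums (659 to 1264 TPM) Cox6a2 was at 0 in 1 with a median of 7.14 TPM, and Cox8b had a median of 13.9 TPM with none at 0. Cox7a1 overlapped between these sets, at 6.52 to 18.2 TPM (median 10.2) in the 10 lowest and 7.29 to 27.3 TPM (median 19.1) in the 10 highest. On the log2 scale over 30 libraries the correlation with the muscle sum was r = 0.75 (rho = 0.85) for Cox6a2, r = 0.65 (rho = 0.76) for Cox8b and r = 0.48 (rho = 0.52) for Cox7a1. For their counterparts it was r = -0.36 for Cox6a1, -0.33 for Cox8a and -0.29 for Cox7a2. The points share their library, and no test is attached to them. Without the 2 libraries farthest from the median muscle sum r was 0.77 for Cox6a2, 0.69 for Cox8b and 0.45 for Cox7a1. Among the genes most like Cox6a2 over the 30 libraries were Fitm1 (r = 0.92), Tpm2 (0.90), Hrc (0.90) and Cacna1s (0.89). Those most like Cox8b were Dhrs7c (0.84), Mettl21c (0.80), 1110002E22Rik (0.79), Fitm1 (0.79) and Lmod3 (0.79). For Cox7a1 they were Hspb6 (0.79), Ccdc50-ps (0.79), 3425401B19Rik (0.75), Ddit4l (0.74) and Cand2 (0.73). Ndufa4l2 was most like Ndufaf5 (0.72), Gm48552 (0.70), Rbm26 (0.69), Cyp2j6 (0.67) and Zfp523 (0.66). The closest to Cox4i2 reached only r = 0.65 (8030453O22Rik and Gm22581), 0.62 (Gm49215), 0.60 (ENSMUSG00000120603) and 0.56 (Gm20661).

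**Figure D2:**
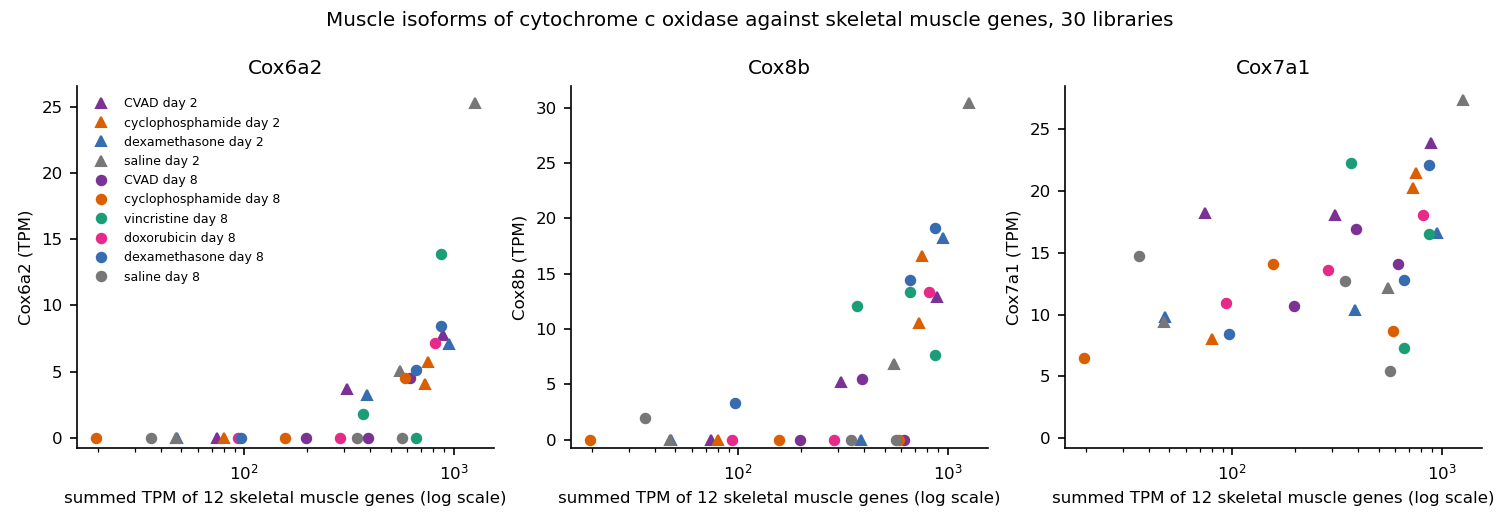
TPM of Cox6a2, Cox8b and Cox7a1 in each of the 30 libraries against the summed TPM of 12 skeletal muscle genes on a log axis, with colour for treatment, triangles for day 2 and circles for day 8. Cox6a2 and Cox8b are at 0 in most libraries with under 200 TPM of muscle genes and highest in the saline library of day 2 with 1264 TPM.

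The other members mostly varied together. For the 82 genes with a mean of at least 20 TPM the CV over 30 libraries was 8.7% at the median, with a range of 5.5 to 21.7%, against a median of 8.83% for 9529 protein-coding genes at that level. With group means removed, pairs of these 82 genes had a median r of 0.47 over 30 libraries, and 91.5% of pairs were above 0. Pairs of the 9529 coding genes had a median of 0.34, with 88.3% above 0. The median within complex II was 0.79, within complex III 0.75, within complex I 0.50, within complex IV 0.49 and within complex V 0.45. Among assembly factors of complex I it was 0.03. These factors averaged 21.5 to 43.2 TPM, and the part of expression level in these r values was not tested. With members of the other complexes the median r was 0.65 for complex II, 0.59 for III, 0.48 for I, 0.49 for IV, 0.47 for V and 0.07 for the assembly factors. Complexes II and III thus had a higher value within than across complexes, while I, IV and V had about the same value within and across. The gene closest to the sum of the others was Atp5a1 (r = 0.95), and Ndufaf2, Ndufaf4 and Ndufaf7 were the 3 with r below 0 (-0.31, -0.10 and -0.07). The most variable of the 82 were Ndufa5 (27.4 to 58.6 TPM, CV 21.7%) and Atp5md (31.3 to 62.8 TPM, CV 21.1%). These correlations share library composition. The summed TPM of all 90 had r = 0.92 (rho = 0.94) with the sum of the sensory neuron markers, 0.89 (rho = 0.91) with satellite glia markers and 0.80 (rho = 0.78) with the protein-coding share of TPM. With group means removed the value for the neuron markers was 0.94, and without the 2 farthest libraries it was 0.91. As a share of coding TPM, the members had r = 0.69 with the neuron markers (0.54 without libraries 1 to 8), 0.36 with satellite glia markers (0.18 without them), -0.53 with macrophage and -0.48 with endothelial markers.

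CVAD was compared with saline on day 8. The sum of the members was 6946 to 8192 TPM in CVAD (mean 7638 ± 635, n = 3) and 7752 to 8374 TPM in saline (7969 ± 351), so the groups overlapped. Of the 90 genes 22 had a higher and 67 a lower mean on the log2 scale in CVAD, with a median of -0.06 against 0.02 for all 25434 genes. Of all genes 54.2% had the higher mean in CVAD. Without CVAD replicate 3 the member median was 0.00. By limma 0 of the 90 were called, as were 0 of all genes (0%), and 3 members had an unadjusted p under 0.05, all lower in CVAD, against 5.98% of all genes. Groups did not overlap for 5 members, against 9.99% of all genes. Ndufb7 (ENSMUSG00000033938, chromosome 8, 84293300 to 84298255), an accessory subunit of complex I, had 34.8, 37.1 and 31.5 TPM in CVAD, against 44.02, 45.6 and 43.8 TPM in saline. All CVAD libraries were below all saline libraries (-0.36 ± 0.12, adjusted p 0.544 by limma). Ndufs5, another accessory subunit, had 98.98, 121 and 98.5 TPM in CVAD and 120.5, 124 and 119 TPM in saline (-0.19 ± 0.09, adjusted p 0.783 by limma). The second CVAD library lay between the saline libraries, and without it the change was -0.29. Ndufb9, in the membrane arm, had 86.1, 90.9 and 76.7 TPM in CVAD and 92.6, 102 and 96.3 TPM in saline, without overlap (-0.20 ± 0.09, adjusted p 0.808 by limma, and -0.13 without CVAD replicate 3). The sensory neuron markers were lower in CVAD for 12 of 12, with a median of -0.07 and 0 called, beside the members' -0.06. The skeletal muscle markers were higher in CVAD for 12 of 12, with a median of 1.01 and 0 called, at 196 to 616 TPM in CVAD and 36.1 to 563 TPM in saline. The 7 neutrophil markers were lower in CVAD for 7 of 7, each with an unadjusted p under 0.05 and 0 called, at 61.3 to 89.4 TPM in CVAD and 204 to 345 TPM in saline. The part of these markers in the members' values was not tested.

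By complex the medians against saline on day 8 in CVAD were -0.07 for complex I, -0.07 for III, -0.06 for IV and -0.06 for V, and -0.01 for both complex II and the assembly factors. Complex II had 2 of 4 genes higher.

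**Figure D3:**
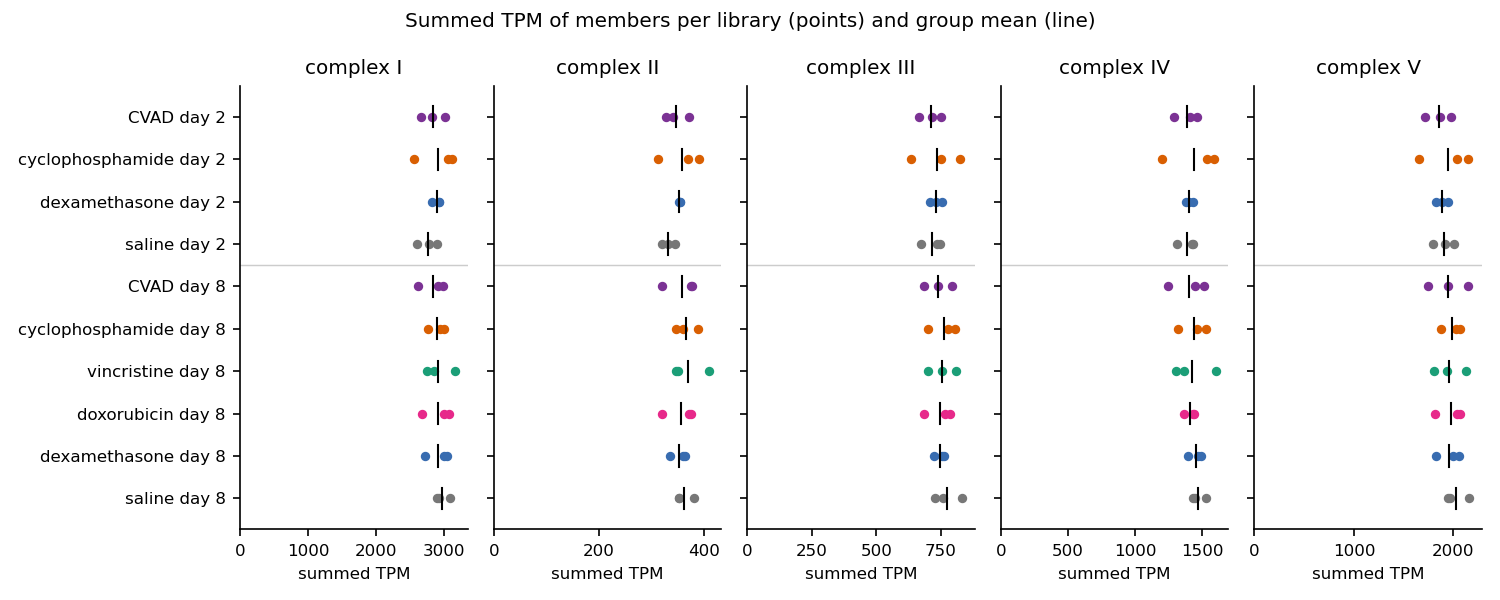
Summed TPM of the members of complexes I to V in each library (points) with the mean of the 3 libraries (lines), by group. In no complex does a drug group of day 8 stand clear of saline of day 8. The sum of all 90 members, 6946 to 8192 TPM in the CVAD libraries of day 8, is not drawn.

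On day 8 each single drug was compared with the same saline libraries. The medians over the 90 genes were -0.03 for cyclophosphamide, -0.03 for vincristine, -0.02 for doxorubicin and -0.04 for dexamethasone, beside -0.04, 0.02, -0.02 and -0.02 for all genes. By limma 0 members were called in each, and 2, 5, 2 and 4 had an unadjusted p under 0.05. The share of all genes called was 0.00786% for cyclophosphamide and 0% for the other 3, and the share with an unadjusted p under 0.05 was 5.76, 3.44, 3.35 and 3.26%. Groups did not overlap for 5, 9, 3 and 10 members, against 9.48, 6.18, 5.99 and 6.51% of all genes.

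Atp5k had 42.5, 34.98 and 34.6 TPM in cyclophosphamide, against 31.5, 20.3 and 33.03 TPM in saline, without overlap (0.41 ± 0.15, adjusted p 0.724 by limma). Ndufb7 had 38.9, 31.8 and 38.6 TPM in cyclophosphamide, again below all saline libraries (-0.29 ± 0.12, adjusted p 0.800 by limma). Ndufv2, a core subunit of complex I, had 70.3, 70.2 and 78.3 TPM in cyclophosphamide and 84.04, 79.9 and 86.3 TPM in saline, without overlap (-0.19 ± 0.09, adjusted p 0.871 by limma). The second saline library of Atp5k lay well below the other saline libraries, and without it the change in cyclophosphamide was 0.20.

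In vincristine Ndufaf2 had 17.8, 22.9 and 13.1 TPM, against 24.8, 21.9 and 22.9 TPM in saline, with overlap (-0.39 ± 0.16, adjusted p 1 by limma). Without the third vincristine library the change was -0.19. Ndufa13 had 24.8, 25.9 and 27.6 TPM in vincristine and 32.6, 28.8 and 31.98 TPM in saline, without overlap (-0.24 ± 0.10, adjusted p 1 by limma). Cox8b had 13.3, 7.64 and 12.1 TPM in vincristine and 19.1, 14.4 and 3.32 TPM in dexamethasone, against 1.92, 0 and 0 TPM in saline. Both drug groups lay above saline, with an adjusted p of 1 by limma, and no fold is given because saline libraries are listed at 0. Beside it, the muscle markers summed to 370 to 866 TPM in vincristine and 96.2 to 865 TPM in dexamethasone, against 36.1 to 563 TPM in saline. Their part in the Cox8b values was not tested.

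In doxorubicin Cox6b2 had 16.5, 14.97 and 15.1 TPM, against 25.5, 14.8 and 31.2 TPM in saline (-0.53 ± 0.23, adjusted p 1 by limma). In dexamethasone it had 17.02, 15.8 and 14.8 TPM (-0.50 ± 0.23, adjusted p 1 by limma). The saline libraries of Cox6b2 spanned a range that held all 3 doxorubicin libraries. Without the third saline library its change was -0.31 in doxorubicin and -0.28 in dexamethasone, and without the second saline library -0.83 and -0.79. Atp5d, the delta subunit of the ATP synthase, had 128, 184 and 134 TPM in doxorubicin and 175, 189 and 177 TPM in saline (-0.30 ± 0.13, adjusted p 1 by limma). The second doxorubicin library was within the saline range, and without it the change was -0.46. Ndufa7, an accessory subunit of complex I, had 129, 138 and 118 TPM in doxorubicin and 114, 117 and 118 TPM in saline, without overlap (0.14 ± 0.08, adjusted p 1 by limma, and 0.08 without the second doxorubicin library). Ndufaf2 in dexamethasone had 18.5, 18.9 and 16.5 TPM, below all saline libraries (-0.35 ± 0.16, adjusted p 1 by limma).

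**Figure D4:**
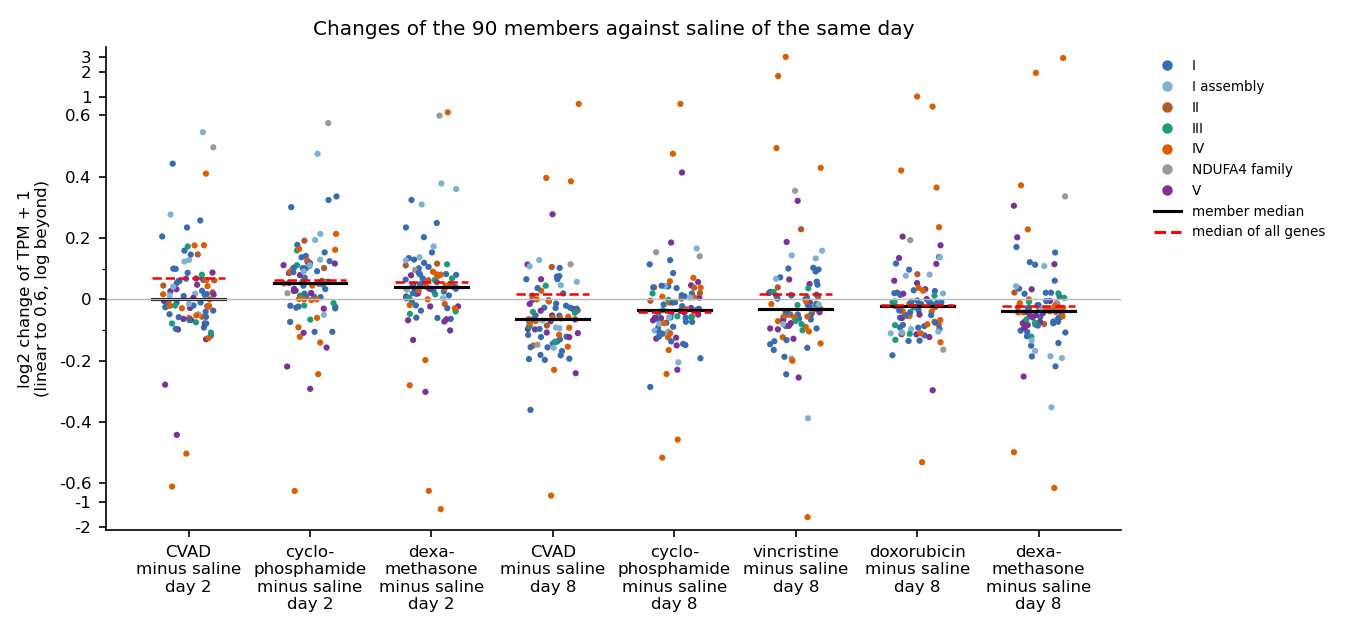
Log2 change of each of the 90 genes in the 8 comparisons against saline on days 2 and 8, coloured by complex, with the member median (black) and the median of all genes (red, dashed). The axis is linear to 0.6 and logarithmic beyond, the median size of a change is 0.07, and the 7 points beyond 1 are Cox8b, Cox6a2 and Cox4i2.

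On day 2 the summed TPM was 6993 to 7936 in CVAD, 6691 to 8443 in cyclophosphamide and 7492 to 7796 in dexamethasone, against 7029 to 7764 in saline, so all groups overlapped. Member medians against saline were 0.00 in CVAD, 0.05 in cyclophosphamide and 0.04 in dexamethasone, beside 0.07, 0.06 and 0.06 for all genes. The direction turned with scaling: with median-ratio scaling the member medians were -0.07, -0.02 and -0.02, and with TPM rescaled over protein-coding genes -0.04, -0.01 and -0.01. By limma 0 members were called in each. All genes called were 0.0432% in CVAD, 0.0118% in cyclophosphamide and 0.00393% in dexamethasone, and 6, 6 and 5 members had an unadjusted p under 0.05, against 8.19, 7.51 and 5.37% of all genes. Groups did not overlap for 5, 4 and 12 members, against 13.5, 11.5 and 8.91% of all genes.

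Markers of other cell types differed between these groups as well. In CVAD the 7 neutrophil markers were higher for 7 of 7 (median 0.70) and summed to 141 to 275 TPM, against 89.1 to 149 TPM in saline. The 5 red blood cell markers were lower in CVAD for 5 of 5 (median -1.20), at 1.43 to 123 TPM, against 50.5 to 75.97 TPM in saline. The 6 spinal cord markers were lower in cyclophosphamide for 5 of 6 (median -1.79) and in dexamethasone for 6 of 6 (median -1.44), at 6.11 to 25.1 TPM in cyclophosphamide and 4.01 to 33.9 TPM in dexamethasone, against 21.2 to 147 TPM in saline. The 7 adipocyte markers were higher in cyclophosphamide for 7 of 7 (median 0.78), at 111 to 146 TPM, against 44.9 to 91.6 TPM in saline. Sensory neuron markers were higher for 4 of 12 in CVAD (median -0.04), 11 of 12 in cyclophosphamide (0.08) and 9 of 12 in dexamethasone (0.03). By limma 0 markers of these lists were called. Their part in the members' values was not tested.

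Ndufa12 (ENSMUSG00000020022, chromosome 10, 94034582 to 94057305), an accessory subunit of the peripheral arm of complex I, had the smallest p of any member in these comparisons. It had 120.3, 149 and 133 TPM in CVAD on day 2, against 90.2, 108 and 96.4 TPM in saline. All CVAD libraries were above all saline libraries (0.44 ± 0.10, adjusted p 0.106 by limma, 95% interval 0.24 to 0.65). In cyclophosphamide it had 139, 127 and 107 TPM (0.34 ± 0.10, adjusted p 0.379) and in dexamethasone 134, 129 and 107 TPM (0.32 ± 0.10, adjusted p 0.744). On day 8 CVAD was at 109.7, 93.1 and 101 TPM, against 110.4, 119 and 111 TPM in saline, without overlap and in the other direction. The difference between the CVAD effects, day 8 minus day 2, was -0.61 ± 0.14, adjusted p 0.109 by limma, so it did not pass.

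Reads may be divided between Ndufa12 and the copy Ndufa12-ps. The copy had 33.8, 42.6 and 35.7 TPM in CVAD on day 2 and 28.04, 31.2 and 32.8 TPM in saline, without overlap. It also stood apart by library number, at 33.8 to 44.8 TPM in libraries 1 to 8 and 28.04 to 32.8 TPM in the other day 2 libraries. The sum of both was 154, 192 and 168 TPM in CVAD and 118, 139 and 129 TPM in saline on day 2, and 146, 123 and 133 TPM in CVAD and 151, 156 and 147 TPM in saline on day 8. The sums, like Ndufa12 alone, did not overlap on either day. In cyclophosphamide on day 2 the sum was 184, 169 and 144 TPM, and in dexamethasone 171 and 166 TPM in libraries 7 and 8 and 139 TPM in library 9. Each of libraries 1 to 8 thus had a higher sum than each other day 2 library.

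Ndufaf2 (ENSMUSG00000068184, chromosome 13, 108139249 to 108295157), an assembly factor known to act late in building complex I, had 26.1, 24.2 and 30.2 TPM in CVAD and 23.96, 27.2 and 25.2 TPM in cyclophosphamide, against 18.7, 18.1 and 17.3 TPM in saline on day 2. Both drug groups were above saline (0.54 ± 0.16, adjusted p 0.297, and 0.47 ± 0.16, adjusted p 0.525, by limma). In dexamethasone it had 25.6, 27.4 and 16.3 TPM, the last of these in library 9 and the others in libraries 7 and 8. Over libraries 1 to 8 Ndufaf2 lay between 23.96 and 30.2 TPM and over the other day 2 libraries between 16.3 and 18.7 TPM. Ndufb7 was the other member without overlap, at 43.6 to 55.8 TPM in libraries 1 to 8 and 36.03 to 43.5 TPM in the other day 2 libraries. That is 2 of 90 members higher, against 2.49% of all tested genes. With a term for libraries 1 to 8 in the model, which rests on the dexamethasone group alone to tell drug from library, the change of Ndufa12 in CVAD was 0.15 ± 0.17 and that of Ndufaf2 was -0.12 ± 0.25, both with an adjusted p of 1 by limma.

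Atp5mpl, a small subunit of the ATP synthase also known as 6.8PL, had 79.1, 96.3 and 81.3 TPM in CVAD on day 2, against 118, 109.8 and 121 TPM in saline, without overlap (-0.44 ± 0.16, adjusted p 0.401 by limma). On day 8 its libraries overlapped, at 125, 133 and 108 TPM in CVAD and 96.2, 145 and 102 TPM in saline. Ndufa13 had 35.9, 38.9 and 28.9 TPM in cyclophosphamide and 24.1, 27.1 and 30.8 TPM in saline on day 2, with overlap (0.32 ± 0.10, adjusted p 0.447 by limma). In dexamethasone Ndufa4l2 had 6.69, 8.61 and 8.83 TPM, against 4.06, 5.05 and 5.83 TPM in saline, without overlap (0.60 ± 0.23, adjusted p 0.891 by limma). Against the same saline libraries Ndufa4l2 was also higher in cyclophosphamide (0.57 ± 0.23, adjusted p 0.563 by limma) and in CVAD (0.50). Ndufaf8, another assembly factor, had 28.9, 29.8 and 23.6 TPM in dexamethasone and 18.3, 21.8 and 23.4 TPM in saline, also without overlap (0.36 ± 0.14, adjusted p 0.891 by limma). The third dexamethasone library, at 23.6 TPM, is not among libraries 1 to 8. With the term for libraries 1 to 8 the change of Ndufaf8 was 0.16.

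**Figure D5:**
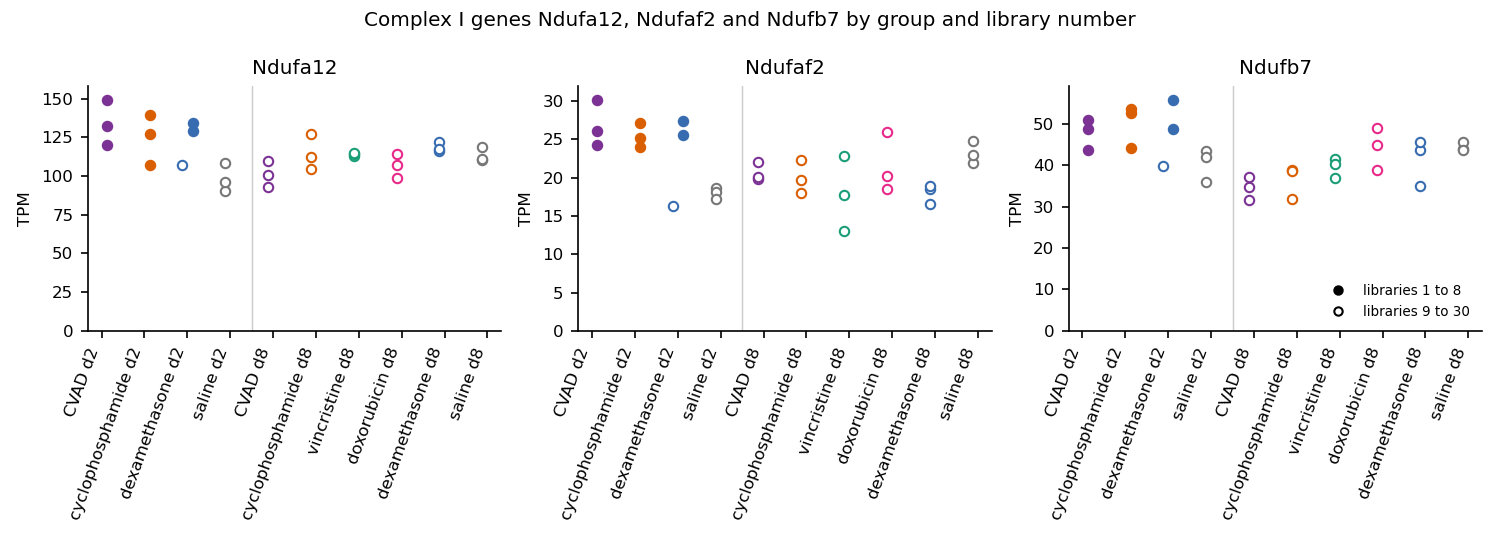
TPM of Ndufa12, Ndufaf2 and Ndufb7 in every library by group, with filled points for libraries 1 to 8 and open points for libraries 9 to 30. Ndufaf2 lies at 23.96 to 30.2 TPM in the filled points and at 16.3 to 18.7 TPM in the open points of day 2.

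CVAD was set beside each of its parts. On day 8 the member medians were -0.03 against cyclophosphamide, -0.03 against vincristine, -0.03 against doxorubicin and -0.01 against dexamethasone, and on day 2 they were -0.04 against both cyclophosphamide and dexamethasone. The medians of all genes were 0.06, 0.00, 0.04 and 0.04 on day 8 and 0.01 and 0.01 on day 2. With median-ratio scaling the member medians of day 8 were -0.10, -0.03, -0.07 and -0.06. By limma 0 members were called in any of the 6. Called over all genes were 0% in each except cyclophosphamide on day 2 (0.00393%), and 2, 1, 1 and 3 members on day 8 and 2 and 0 on day 2 had an unadjusted p under 0.05. The shares of all genes with an unadjusted p under 0.05 were 5.34, 3.48, 4.8 and 4.94% on day 8 and 3.83 and 3.66% on day 2. Ndufb7 had 34.8, 37.1 and 31.5 TPM in CVAD and 38.8, 49.02 and 44.9 TPM in doxorubicin, without overlap (-0.35 ± 0.12, adjusted p 0.888 by limma). Ndufb9 had 86.1, 90.9 and 76.7 TPM in CVAD, against 97.8, 96.01 and 106 TPM in cyclophosphamide (-0.24 ± 0.09, adjusted p 0.908) and 94.8, 98.7 and 101 TPM in dexamethasone (-0.22 ± 0.09, adjusted p 0.956 by limma). All CVAD libraries of Ndufb9 were below those of both drugs. Against vincristine the smallest p belonged to Ndufs5 (-0.19 ± 0.09), and on day 2 to Cox5b against cyclophosphamide (-0.23 ± 0.11) and Ndufs5 against dexamethasone (-0.17 ± 0.09), each with an adjusted p of 1 by limma. Without CVAD replicate 2 the change of Ndufs5 against vincristine was -0.29, and without CVAD replicate 1 that against dexamethasone was -0.11. The change of Cox5b was -0.08 without cyclophosphamide replicate 2 and -0.37 without replicate 3. These comparisons share the CVAD libraries.

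The response of day 8 minus that of day 2 had 0 members called for CVAD, cyclophosphamide and dexamethasone, with 6, 7 and 5 members at an unadjusted p under 0.05. All genes called were 0.0826% for CVAD and 0% for the others, with 8.63, 9.55 and 4.92% at an unadjusted p under 0.05. In CVAD the smallest p after Ndufa12 belonged to Ndufb7 (-0.59 ± 0.17, adjusted p 0.184) and Ndufaf2 (-0.70 ± 0.23, adjusted p 0.279 by limma). In cyclophosphamide they belonged to Ndufb7 (-0.59 ± 0.17, adjusted p 0.224), Ndufa13 (-0.47 ± 0.15, adjusted p 0.280) and Ndufaf2 (-0.68 ± 0.23, adjusted p 0.331). In dexamethasone the smallest p belonged to Ndufaf2 (-0.66 ± 0.23, adjusted p 0.932 by limma). Libraries 1 to 8 are all of day 2, so for CVAD and cyclophosphamide the difference between days and that between library numbers cannot be told apart.

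Saline ganglia of day 8 were compared with those of day 2. All libraries of day 2 have lower library numbers than all of day 8, so day and library number cannot be told apart here. Summed TPM was 7752 to 8374 TPM on day 8 and 7029 to 7764 TPM on day 2, with 77 of 90 members higher on day 8, a median of 0.10 and 18 without overlap, all higher. Over all genes 64.5% were higher on day 8, the median was 0.07 and 13.3% did not overlap, 11.2% higher. By limma 0 members were called against 0.00393% of all genes, and 8 members had an unadjusted p under 0.05, against 6.93%. All 4 genes of complex II, all 7 of complex III and all 8 assembly factors had the higher mean on day 8. Ndufa10, an accessory subunit of complex I, had 118, 129.9 and 121 TPM on day 8, against 102, 106 and 111 TPM on day 2, without overlap (0.20 ± 0.09, adjusted p 0.652 by limma). The assembly factor Ndufaf3 had 38.5, 45.1 and 40.4 TPM on day 8 and 37.4, 34.5 and 34.6 TPM on day 2, without overlap (0.21 ± 0.09, adjusted p 0.652 by limma). Uqcrb of complex III had 71.6, 86.4 and 71.5 TPM on day 8 and 60.7, 71.6 and 65.9 TPM on day 2, with overlap (0.21 ± 0.09, adjusted p 0.685 by limma, and 0.12 without the second library of day 8). Sensory neuron markers were higher on day 8 for 12 of 12, with a median of 0.11 and 0 called. Spinal cord markers were lower on day 8 for 6 of 6 (median -1.52), muscle markers lower for 12 of 12 (median -1.04) and neutrophil markers higher for 7 of 7 (median 1.39), with 0 called in each. The part of these markers in the members' values was not tested. With median-ratio scaling the members' median was 0.03 and with TPM rescaled over protein-coding genes 0.02.

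Genes that work beside the chain were described from lists chosen with earlier results known. Tested were 43 further assembly factors, 13 genes of coenzyme Q synthesis or binding, 17 of the tricarboxylic acid cycle and pyruvate dehydrogenase, 16 regulators of mitochondrial genes and 2 other subunits and carriers. Of these, 0 were called in either direction in any of the 8 comparisons with saline, by limma. Over all genes the share called in these comparisons was 0 to 0.0432%. On day 8 in CVAD, 28 of the 43 assembly factors and 8 of the 13 coenzyme Q genes had the higher mean (medians 0.02 and 0.04). So did 5 of the 17 genes of the cycle and pyruvate dehydrogenase and 12 of the 16 regulators (medians -0.03 and 0.06). In this order 2, 0, 0 and 0 had an unadjusted p under 0.05. Of all 25434 genes 54.2% had the higher mean in CVAD in this comparison, and 5.98% had an unadjusted p under 0.05. The assembly factors of smallest p were Bcs1l, which serves complex III (-0.28 ± 0.12, adjusted p 0.743), and Dmac2 (0.32 ± 0.16, adjusted p 0.830). In the other lists they were Coq10b (0.15 ± 0.09, adjusted p 0.902), Coq9 (-0.10 ± 0.10, adjusted p 0.967), Ppard (0.23 ± 0.14, adjusted p 0.906), Gabpa (0.16 ± 0.11, adjusted p 0.936), Pdhb (-0.07 ± 0.08, adjusted p 0.977) and Mdh2 (-0.07 ± 0.10, adjusted p 0.987), all by limma. Cyc1, the heme-bearing cytochrome c1 of complex III, had 98.7, 99.3 and 80.2 TPM in CVAD and 93.6, 103 and 91.1 TPM in saline on day 8. Cycs, cytochrome c, had 37.05, 36.8 and 32.1 TPM in CVAD and 30.3, 36.2 and 31.02 TPM in saline. Ppargc1a, the coactivator known as PGC-1alpha, had 26.7, 20.3 and 19.3 TPM in CVAD and 22.9, 17.8 and 24.6 TPM in saline. The libraries overlapped for all 3.

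The intervals show which changes remain possible. Over the 8 comparisons with saline and 90 members, 604 of 720 95% intervals (83.9%) lay within 0.5 of 0 on the log2 scale and 684 lay within 1, and the median interval reached 0.23 to each side of its estimate. Of the 720 changes 22 exceeded 0.5 in size and 7 exceeded 1, and those above 1 belonged to Cox8b, Cox6a2 and Cox4i2, whose libraries include zeros. In all, 33 of 720 had an unadjusted p under 0.05 (4.58%), against 3.26 to 8.19% of all genes in the 8 comparisons. A p that misses the threshold does not show that levels were the same.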

How the data were processed

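Mouse lumbar ganglia gave 60 to 80 ng of total RNA per stranded library, depleted of ribosomal RNA, per the labels' protocols. Tools named in the submitters' processing notes are FastQC (0.12.1), STAR (2.7.10b) and StringTie (2.2.1). These notes list GRCm39 and mm10 as builds but give no role to either. The authors deposited TPM per gene, and columns summed to 999910 to 999941. TPM keeps no read depth, so no counting interval is given. Coordinates are the table's, and 3 of 90 members have the same ones in GRCm38.

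In limma 3.58.1 (R 4.3.3) 1 mean per group was fitted to log2(TPM + 1) of all 30 libraries, for genes with at least 1 TPM in at least 3 libraries and with a trend on mean expression. Each of 18 comparisons used 2-sided p-values with Benjamini-Hochberg adjustment across the 25434 genes and a threshold of 0.05. The rule for named genes took members past the threshold or else the 3 of smallest p in a comparison, the highest and lowest of each complex, listed isoform genes and the 5 genes most like a tissue isoform. Some values that this rule covers are not reported here. The fit was tested on simulated data. Members and lists were chosen with earlier results of these data known, and the term for libraries 1 to 8 was added after seeing the data. Figures were drawn with matplotlib 3.10.9.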

Additional observations from a re-analysis of the deposited data

How the results depend on the processing

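No paired analysis was possible because the labels give no replicate numbers, and replicates are named in accession order only. Over 270 recalculated counts of called members (no filter on low TPM, 0.1 as pseudocount, scaling by median ratios or over protein-coding genes, a test of protein-coding genes alone or of the compared groups alone, library quality weights, the omission of each library, and a term for libraries 1 to 8 added after seeing the data), 0 were above 0. Of 270 member medians 268 moved by less than the SD of the member median between replicates, with group means removed, 0.0939. That SD is larger than 17 of the 18 reported medians, so this says little about stability, and 36 of the 270 had the other sign. With 1 library left out the median of CVAD against saline on day 8 lay between -0.12 and 0.00 and that of vincristine between -0.10 and 0.02. The exceptions were cyclophosphamide against saline on day 2, at 0.15 without cyclophosphamide replicate 3, and the cyclophosphamide response, at 0.03 with median-ratio scaling, where the median of all genes before that scaling was -0.11. Of 810 values of the 3 members of smallest p, 808 kept direction and side. Those that reversed were Ndufaf2 with the term for libraries 1 to 8, at -0.12 in CVAD and -0.19 in cyclophosphamide on day 2. These members were picked by p in the same data. A value of the same sign and any size, still short of the threshold, counts as kept, so the count says little about stability. With that term Ndufaf2 in the cyclophosphamide response went from -0.68 to -0.01. Ndufa12 in cyclophosphamide on day 2 went from 0.34 to 0.04, and both count as kept. The cause was not tested. With library quality weights the smallest adjusted p of a member by limma was 0.0554 for CVAD and 0.0795 for cyclophosphamide on day 2, with 98 and 50 of all genes called, against 11 and 3 in the reported fit. With the same weights it was 0.0617 for the CVAD response and 0.0761 for the cyclophosphamide response, with 86 and 42 of all genes called, against 21 and 0. For the CVAD response it was 0.0684 with TPM rescaled over protein-coding genes, 0.0805 with median-ratio scaling and 0.0985 in the test of protein-coding genes alone, against 0.109 in the reported fit. Limits are 3 libraries a group, unknown depth, no saline library among libraries 1 to 8, and genes listed at 0.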

Other observations

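Of the 11 named copies of members that passed the level, 4 were higher in each of libraries 1 to 8 than in each other library of day 2. The share was 8.51% for the 2620 processed pseudogenes tested and 2.49% for all tested genes, so other genes shifted as well. The share of 4 in 11 is larger than both but rests on few copies, and its cause was not tested. Ndufab1-ps lay at 62.6 to 76.7 TPM in libraries 1 to 8 and at 40.4 to 48.3 TPM in the other libraries of day 2, while Ndufab1, the acyl carrier protein of complex I, overlapped between these libraries. Cox6c2 lay at 49.3 to 86.3 TPM in libraries 1 to 8 and at 28.5 to 45.3 TPM in the other libraries of day 2. Ndufs5-ps lay at 162 to 211 TPM in libraries 1 to 8 and at 126 to 154 TPM in the others of day 2, and Ndufa12-ps at 33.8 to 44.8 TPM and 28.04 to 32.8 TPM. The sum of Ndufs5 and Ndufs5-ps was 246, 282 and 246 TPM in CVAD and 273, 292 and 278 TPM in saline on day 8.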
